A study of Homo sapiens with 5 samples.

Results

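Adhesion G protein-coupled receptors were followed in clones of TE7, an established human esophageal carcinoma cell line. The receptors were ADGRL1, ADGRL2, ADGRL3, ADGRL4, ADGRF1, ADGRF4, ADGRG1, ADGRG6, ADGRE5 and ADGRB2, kept where the array annotation gave them a named probe set. Of these 10 genes 8 qualified, out of 14812 named genes; ADGRL4 and ADGRB2 had no named probe set and were not analysed here. The receptors were chosen with the difference between CDH26 and control clones in view, so that difference is given for them as a description, without a test. Both groups are TE7 clones, each grown from a single transduced cell: 2 clones carried pMIRNA1-puro-control and 3 carried pMIRNA1-puro-CDH26, which expresses the cadherin CDH26. All were kept in medium with 1.8 mM calcium for 24 h before total RNA was taken, and each was measured on 1 Affymetrix Gene 2.0 ST array. A group therefore holds few clones, and the spread within it includes differences between clones.

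Adhesion G protein-coupled receptors carry a long extracellular part with adhesion domains, joined to the membrane-spanning helices through a GAIN domain at which many of them cleave themselves during maturation. Binding of a ligand on a neighbouring cell or in the matrix, or mechanical pull, can expose a tethered peptide that activates the receptor, which signals through heterotrimeric G proteins, for some members to cyclic AMP. In epithelia several of them sit at contacts between cells or between cell and matrix.

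Values are logarithms, read as log2 although the base is not recorded, of each clone against the average of the 2 controls. Values of the CDH26 clones are given in the order 1, 2, 3 and those of the controls in the order 1, 2. In RNA of whole cultures, fewer cells of a kind and less RNA per cell cannot be told apart. The values hold differences and no expression level, so the control clones are always equal and opposite, receptors cannot be ranked by abundance, and whether TE7 expresses its labelled epithelial markers cannot be checked as a level. CDH26 itself had values of 2.87, 3.01 and 2.63 with the construct and 0.01 and −0.01 without. Its difference was 2.84 ± 0.13 (SE), with a limma adjusted p of 0.25 after Benjamini-Hochberg adjustment over all named genes, 0.0106 when the fit was limited to the 6857 genes free of ties between arrays, and 0.64 with trend and robust variance, where the SE was 0.63. Over the fits with 1 clone left out its adjusted p ran from 0.0632 without control clone 1 to 0.77 without CDH26 clone 2, and with a replicate block it was 0.563. In that comparison 0 of 14812 genes passed the adjusted threshold of 0.05, while 520 were higher and 593 lower at an unadjusted p under it; without control clone 1 186 genes passed, none of them in the pathway lists below. The deposited values repeat exactly between arrays in many genes, for reasons not recorded, and a tie is counted below as an overlap.

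The receptors whose differences stand furthest apart, ADGRL2 and ADGRF1, are shown here by their promoters, each beside a relative of the same subfamily with a smaller difference, ADGRL3 and ADGRF4. Each sequence runs 5′ to 3′ from 250 bases before to 50 bases after a RefSeq start on GRCh38.p14, and capitals mark CpG dinucleotides. They lie at chr1:81800126-81800425 (plus strand) for ADGRL2, chr4:61200076-61200375 (plus) for ADGRL3, chr6:47042283-47042582 (minus) for ADGRF1 and chr6:47698330-47698629 (plus) for ADGRF4. For ADGRL2 and ADGRL3 this is the start listed first of several.
ADGRL2: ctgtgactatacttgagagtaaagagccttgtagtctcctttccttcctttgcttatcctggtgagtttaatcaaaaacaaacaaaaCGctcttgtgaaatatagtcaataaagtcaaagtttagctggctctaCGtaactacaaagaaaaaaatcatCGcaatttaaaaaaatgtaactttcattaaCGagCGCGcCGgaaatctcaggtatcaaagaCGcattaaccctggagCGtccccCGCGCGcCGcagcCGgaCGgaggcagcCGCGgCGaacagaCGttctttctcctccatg
ADGRL3: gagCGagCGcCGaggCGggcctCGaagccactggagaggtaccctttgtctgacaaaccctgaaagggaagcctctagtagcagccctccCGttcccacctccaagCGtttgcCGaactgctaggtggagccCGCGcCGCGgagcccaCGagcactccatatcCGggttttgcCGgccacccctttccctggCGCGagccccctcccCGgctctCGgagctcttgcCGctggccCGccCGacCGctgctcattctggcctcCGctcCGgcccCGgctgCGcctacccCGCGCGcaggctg
ADGRF1: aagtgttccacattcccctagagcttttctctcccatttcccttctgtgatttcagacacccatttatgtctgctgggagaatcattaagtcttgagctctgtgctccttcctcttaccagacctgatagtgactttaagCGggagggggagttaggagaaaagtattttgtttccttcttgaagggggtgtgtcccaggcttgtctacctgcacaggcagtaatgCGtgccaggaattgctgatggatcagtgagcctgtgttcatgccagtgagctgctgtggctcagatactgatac
ADGRF4: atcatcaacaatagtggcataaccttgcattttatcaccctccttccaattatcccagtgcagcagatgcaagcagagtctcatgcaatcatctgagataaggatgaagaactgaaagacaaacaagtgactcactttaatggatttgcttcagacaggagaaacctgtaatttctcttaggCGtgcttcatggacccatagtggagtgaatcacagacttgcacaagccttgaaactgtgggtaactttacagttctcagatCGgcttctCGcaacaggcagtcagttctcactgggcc

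The promoters of ADGRL2 and ADGRF1 differ in make-up. The ADGRL2 window holds 19 CpG and the ADGRF1 window 2, against a median of 14 over the 35116 promoters of the same length; 57.1% of those promoters hold fewer CpG than ADGRL2 and 10.97% fewer than ADGRF1. ADGRL3 has 30 CpG and ADGRF4 has 3. RefSeq lists 8 starts for ADGRL2, whose windows hold between 4 and 34 CpG, and the array does not tell which was used. Of the 8 receptors 6 had a promoter in the table.

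Letters of known motifs were searched on both strands, and are given first for these first-listed windows. The TEAD letters GGAATG occur 1 time in the ADGRF1 window and in 14.03% of all promoters, and the AP-1 letters TGANTCA occur 2 times in the ADGRF4 window and in 7.71% of all promoters. The GC box GGGCGG occurs 1 time in the ADGRL3 window, against 44.95% of all promoters. The ADGRL2 window held neither these nor the cyclic AMP response motif TGACG (24.6% of all promoters) or the TATA box TATAAA (11.5%). No motif was found in both of these first-listed windows of ADGRL2 and ADGRF1. Other listed starts of ADGRL2 did hold matches: the window of start 6 has the TEAD letters at bases 211 to 216, as well as the cyclic AMP, GC box and TATA letters, start 3 has the cyclic AMP letters 2 times and start 5 the GC box. These matches describe the letters only.

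The latrophilins, ADGRL1 to ADGRL3, are named after the neurotoxin of black widow venom, which binds ADGRL1, and bind teneurins and FLRT proteins on other cells. ADGRL2, known from the formation of synapses, had the largest difference of the 8 receptors. Its values were 2.85, 3.21 and 1.15 with CDH26, averaging 2.40 ± 1.11 (SD, n = 3), and −0.35 and 0.35 in the controls. All CDH26 clones lay above both controls, but CDH26 clone 3 was far nearer to them than the others, 0.80 log2 units above control clone 2. The difference was 2.40 ± 0.76 (SE), or 5.30-fold on a linear scale, and ranged from 2.00 without CDH26 clone 2 to 3.03 without CDH26 clone 3.

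ADGRL3, which has been linked to attention deficit hyperactivity disorder, followed the same order of clones at a smaller size. It was at 0.51, 0.65 and 0.12 with CDH26 and at −0.15 and 0.15 in the controls. CDH26 clone 3 lay between the controls, so the groups overlapped. Its difference was 0.43 ± 0.21 (SE), and 0.28 without control clone 1.

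ADGRL1, the latrophilin best known from presynaptic terminals, pointed the other way. It was at −0.35, −0.24 and −0.11 with CDH26, against −0.12 and 0.12 in the controls. The groups overlapped, since CDH26 clone 3 was level with control clone 1. The difference was −0.23 ± 0.11 (SE), and −0.11 without control clone 2. ADGRL1 was the only one of the 8 receptors with more than 1 named probe set, and its 2 probe sets gave differences of −0.39 and −0.08.

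In the ADGRF subfamily, ADGRF1 (GPR110), a receptor for the lipid synaptamide, had the second largest difference. Its values were 2.56, 2.13 and 1.03 with CDH26, averaging 1.91 ± 0.79 (SD, n = 3), and 0.02 and −0.02 in the controls. The control clones were close together and every CDH26 clone lay at least 1.00 log2 unit above them, with clone 3 again the lowest. The difference was 1.91 ± 0.52 (SE), or 3.75-fold, and ranged from 1.58 without CDH26 clone 1 to 2.35 without CDH26 clone 3.

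ADGRF4 (GPR115), known from squamous epithelium and from enamel-forming cells, had control clones almost as far apart as those in ADGRL2. It was at 0.45, 0.43 and 0.34 with CDH26 and at −0.34 and 0.34 in the controls. CDH26 clone 3 had the same value as control clone 2, so the groups touched. The difference was 0.41 ± 0.23 (SE); it was 0.06 with control clone 1 left out and 0.75 with control clone 2 left out.

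The remaining receptors had smaller differences, and in each the groups overlapped or touched. ADGRG6 (GPR126), a receptor for collagen IV and laminin that drives myelination by Schwann cells, was at 0.21, 0.27 and −0.05 with CDH26 and at −0.12 and 0.12 in the controls. Its CDH26 clone 3 fell between the control clones, and the difference was 0.14 ± 0.14 (SE), or 0.02 with control clone 1 left out and 0.26 with control clone 2 left out.

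ADGRG1 (GPR56), which binds collagen III and is needed for the layering of the cerebral cortex, was at −0.16, −0.07 and −0.11 in the CDH26 clones and at −0.12 and 0.12 in the controls. All CDH26 clones were near control clone 1. The difference of −0.11 ± 0.09 (SE) turned to −0.24 with control clone 1 left out and to 0.01 with control clone 2 left out.

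ADGRE5 (CD97), a receptor for CD55 that is common on leukocytes, was at 0.07, 0.08 and 0.10 in the CDH26 clones and at −0.07 and 0.07 in the controls. CDH26 clone 1 had the value of control clone 2. The difference was 0.08 ± 0.05 (SE), and it was 0.01 with control clone 1 left out and 0.15 with control clone 2 left out.

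**Figure D1:**
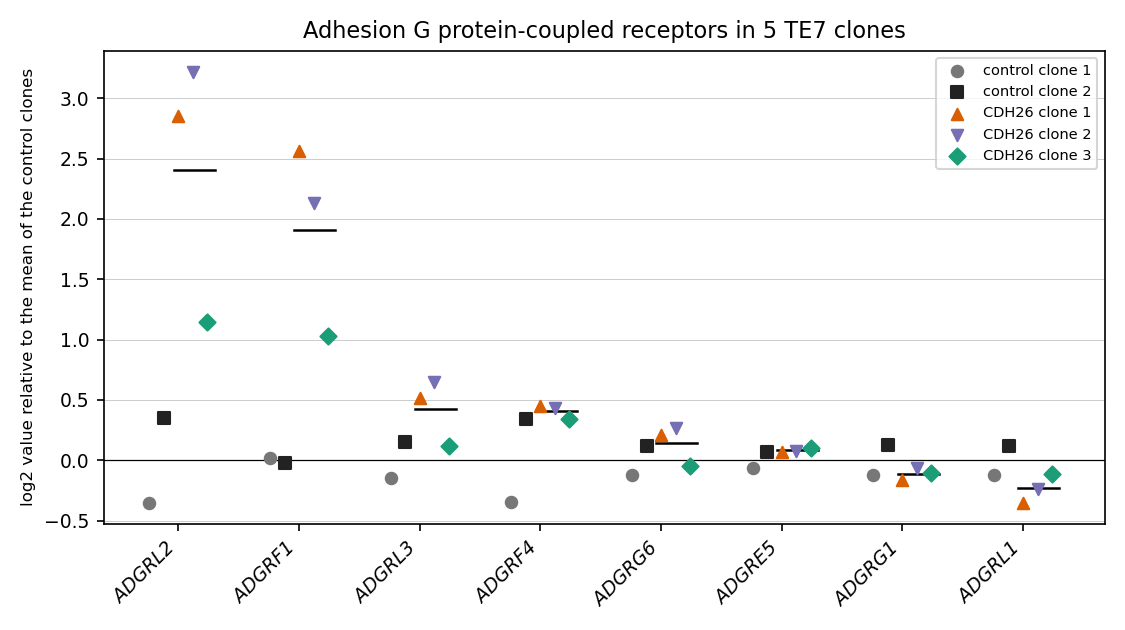
The vertical axis is the log2 value of each clone against the control mean, for the 8 receptors in order of their difference; each symbol is 1 clone and the short black line is the mean of the CDH26 clones. ADGRL2 and ADGRF1 have CDH26 clones at 1.03 to 3.21, above both controls, while in the other 6 receptors the groups overlap or touch.

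Over the 8 receptors the average was higher with CDH26 in 6 and lower in 2, against 7097 and 7338 of all 14812 named genes. Their median difference was 0.28, against a median of 0 over all named genes. CDH26 clones lay wholly above both controls in 2 of 8 and wholly below in 0, against 8.98% and 9.93% of all named genes. The same 2 receptors were at least 2-fold higher, against 0.506% of all named genes, and none was 2-fold lower, against 0.142%. Since the receptors were chosen on this contrast, nothing is read from these shares. Without control clone 2 the CDH26 clones lay above the remaining control in 6 receptors, against 23.8% of all named genes, and without CDH26 clone 3 in 5, against 14.9%. ADGRL2 and ADGRF1 stayed wholly above with each of the 5 clones left out in turn, which was fixed in advance. A gene wholly above with all clones cannot lose this when 1 is left out.

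The clones of a group also differed in these receptors. Control clone 2 was above control clone 1 in 7 of 8 receptors, all but ADGRF1, against 42.7% of all named genes. The control clones lay 0.70 apart in ADGRL2 and 0.69 in ADGRF4, while the median gap was 0.25 over the 8 receptors and 0.09 over all named genes. CDH26 clone 3 was the CDH26 clone nearest to the control mean in 6 of 8 receptors, all but ADGRG1 and ADGRE5. The same held for 92.7% of the 96 named genes at least 2-fold apart. Of the receptors only ADGRL2 and ADGRF1 belong to that set. The share over all named genes was not counted, so nothing is read from the 6 of 8. In ADGRL2 CDH26 clone 3 lay 1.89 log2 units below the mean of the other CDH26 clones and in ADGRF1 1.32 below, whereas in CDH26 it lay 0.31 below.

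The rest of the family was nearly level between the groups. Of 24 other symbols listed, 12 had a named probe set, and their median difference was 0.003 log2 units. Within 0.1 of 0 were 10 of 12, against 8932 of all 14812 named genes. None of the 12 was past the adjusted threshold or an unadjusted p of 0.05 in limma. ADGRA2 (GPR124), a co-receptor for Wnt signals in brain vessels, had the smallest p. It was at −0.21, −0.21 and −0.05 with CDH26 and at 0.02 and −0.02 in the controls, a difference of −0.16 ± 0.06 (SE; limma, adjusted p = 0.626), and was the 1 receptor of the 12 wholly below the controls.

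ADGRA3 (GPR125), an orphan receptor, differed by 0.26 ± 0.26 (SE), with control clones at 0.38 and −0.38 around CDH26 clones at 0.11, 0.29 and 0.37. ADGRG2 (GPR64), known from the epididymis, had control clones at −0.49 and 0.49, the widest gap of the family, and CDH26 clones at −0.06, −0.04 and 0.09, a difference near 0. In both, the control clones bracketed every CDH26 clone.

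ADGRD1, ADGRG3, ADGRB1 and ADGRB3, ADGRV1, ADGRA1, ADGRF5 and ADGRG4 had differences between −0.03 and 0.05. ADGRG7 had the same value on every array, and ADGRG3 had the same value, 0.04, on 4 of them. No test was made of whether the chosen receptors differed from the rest of the family, because they were chosen by their differences.

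**Figure D2:**
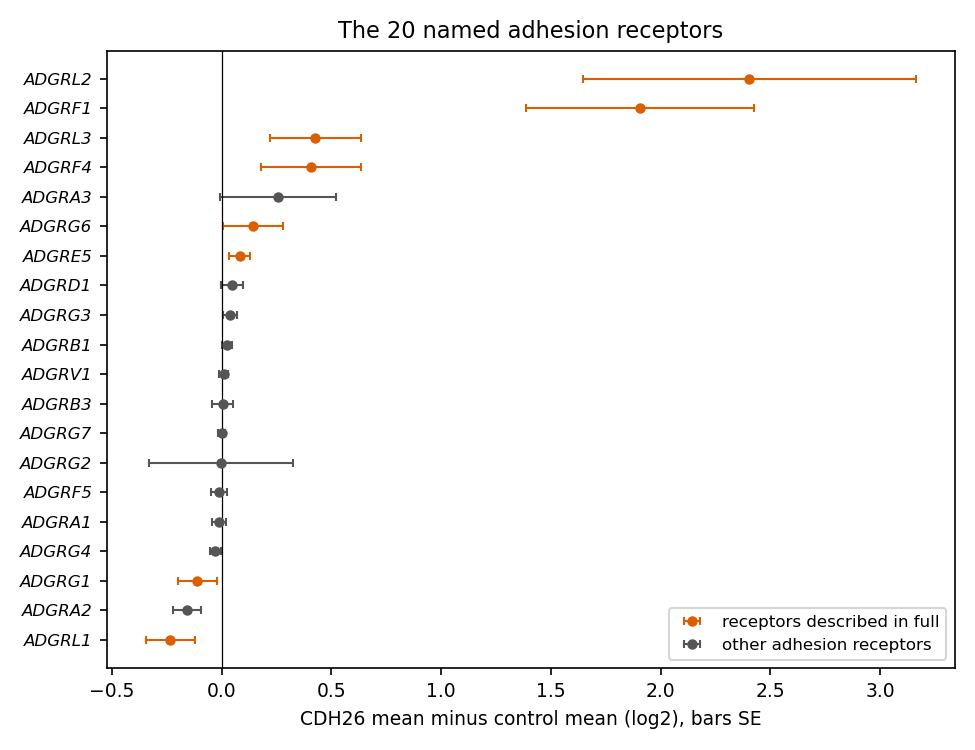
The horizontal axis is the difference of CDH26 and control means in log2 units with its SE from limma, for the 20 adhesion receptors with a named probe set. ADGRL2 at 2.40 and ADGRF1 at 1.91 stand apart, and every other receptor lies between −0.23 and 0.43.

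The ligands of the latrophilins were then compared, since FLRT proteins on one cell bind latrophilins on the next and also bind the netrin receptors UNC5A to UNC5D. No gene of the ligand list passed the adjusted threshold. Of 33 listed ligand symbols 14 were measured; the teneurins had no named probe set. FLRT2 and FLRT3, the ligands with the smallest p-values (limma, unadjusted p = 0.052 and 0.093), both had higher values in the CDH26 clones.

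FLRT3, which binds latrophilins and UNC5 receptors and takes part in cell sorting in the embryo, was at 1.26, 2.33 and 0.53 with CDH26 and at −0.28 and 0.28 in the controls. Every CDH26 clone lay above both controls, with clone 2 the highest and clone 3 the lowest, as in ADGRL2. The difference was 1.37 ± 0.62 (SE; limma, adjusted p = 0.626), and it was 0.89 without CDH26 clone 2.

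FLRT2, a guidance ligand of migrating neurons, was at 1.09, 2.09 and 0.71 with CDH26 and at −0.07 and 0.07 in the controls. The groups did not overlap and the order of the CDH26 clones was the same. A CDH26 clone 3 nearest to the control mean was found in 92.7% of the 96 named genes at least 2-fold apart. How many genes share the full order, with clone 2 highest and clone 3 lowest, was not counted. In FLRT2 the difference was 1.30 ± 0.47 (SE), with a limma adjusted p of 0.626. FLRT1 had a difference of −0.07 ± 0.06.

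Among the netrin receptors that share these ligands, UNC5B differed by −0.19 ± 0.20 (SE), with CDH26 clones at −0.45, −0.23 and 0.10 and controls at 0.13 and −0.13; CDH26 clones 1 and 2 lay below both controls and clone 3 between them. UNC5A, UNC5C and UNC5D had differences between −0.005 and 0.08. CDH26 clones lay wholly above the controls in 2 of the 14 measured ligand genes and below in 0, against 8.98% and 9.93% of all named genes, and the median over the list was 0.02. Of ligands of the other receptors, the prion protein PRNP, a ligand of ADGRG6, differed by 0.16 ± 0.12 and THY1, bound by ADGRE5, by −0.16 ± 0.10.

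**Figure D3:**
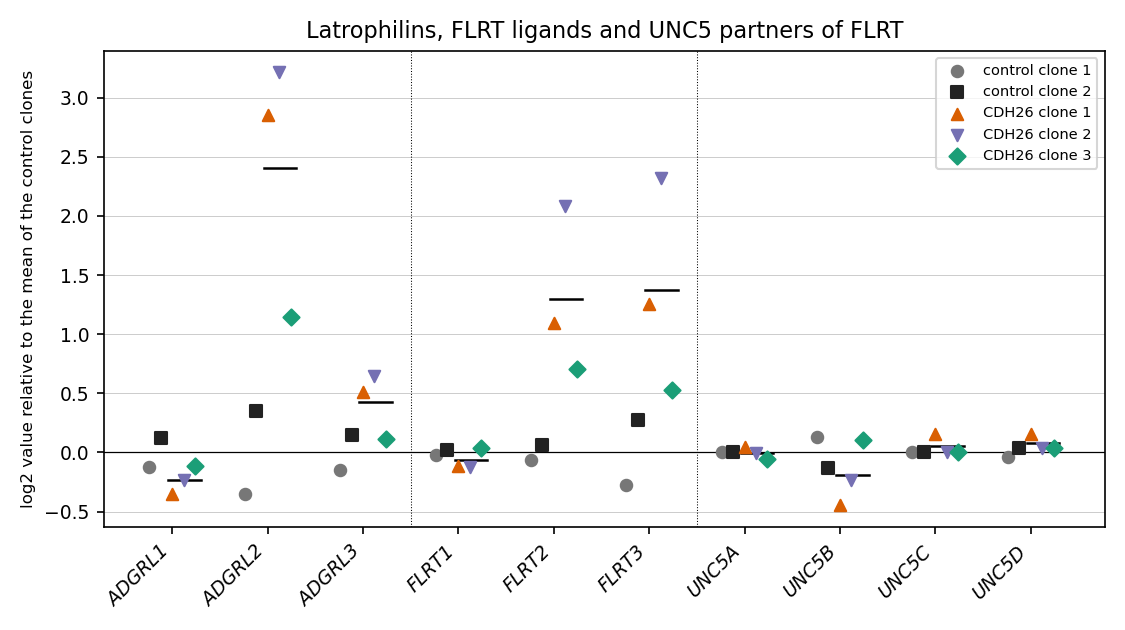
The vertical axis is the log2 value of each clone against the control mean, for 3 latrophilins, 3 FLRT genes and 4 UNC5 genes; each symbol is 1 clone and the short black line is the CDH26 mean. ADGRL2, FLRT2 and FLRT3 have all CDH26 clones above both controls, with CDH26 clone 2 highest and clone 3 lowest in each.

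The genes with the pattern most like each of the leading receptors were found by the root mean square difference of log2 values over the 5 clones, among the 14811 other named genes. For ADGRL2 they were PCDH18, a protocadherin (0.25), the interferon-induced IFI44 (0.28), DDX60 (0.33) and IFI44L (0.36), and EREG, which encodes the growth factor epiregulin (0.46). For ADGRF1 they were EREG (0.16), DPYD, which breaks down pyrimidines (0.21), EYA1, a transcriptional coactivator (0.21), PLAGL1, an imprinted zinc finger gene (0.29), and LUM, which encodes the matrix proteoglycan lumican (0.29). ADGRF1 was at place 9 in the order for ADGRL2, at 0.56, and FLRT3 and FLRT2 were at places 22 and 32, at 0.86 and 0.97. Likeness here includes the difference that chose the receptors.

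Of the genes most like ADGRL2, IFI44 and IFI44L are also its nearest measured neighbours on one side of the chromosome, by the gene order of RefSeq GRCh38.p14. The protein-coding gene between IFI44 and ADGRL2 is ADGRL4, which had no named probe set. IFI44 was at 3.08, 2.85 and 1.58 with CDH26, a difference of 2.50 ± 0.56 (SE), and IFI44L was at 2.56, 2.85 and 0.49, a difference of 1.97 ± 0.86. In IFI44L the lowest of these, clone 3, stood above control clone 2, at 0.25. PTGFR, a prostaglandin receptor gene on the far side of IFI44L, differed by −0.03 ± 0.03. SAMD13 and DNASE2B on the other side of ADGRL2 differed by 0.04 ± 0.05 and 0.04 ± 0.03. PCDH18, DDX60 and EREG, the other genes most like ADGRL2, were not among the 20 measured genes nearest to it. Of the 20 nearest measured genes, 10 on each side, 3 were at least 2-fold apart: IFI44, IFI44L and, in the other direction, NEXN, an actin-binding protein, at −1.33 ± 0.45. Of all named genes 0.506% were at least 2-fold higher and 0.142% lower. This comparison of neighbours was chosen after the values were seen.

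ADGRF1 lies in a cluster with its relatives ADGRF5 and ADGRF4 on chromosome 6. ADGRF5 (GPR116), which controls lung surfactant and is the adjoining protein-coding gene, differed by −0.01 ± 0.04 (SE). On the other side the adaptor gene CD2AP differed by 0.36 ± 0.19, followed by ADGRF4. Of the 20 nearest measured genes none was 2-fold apart, and 14 were within 0.1 of 0, against 8932 of all 14812 named genes. Among these neighbours RUNX2, a transcription factor of bone, was the highest at 0.95 ± 0.20, with CDH26 clones at 1.23, 1.00 and 0.63.

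**Figure D4:**
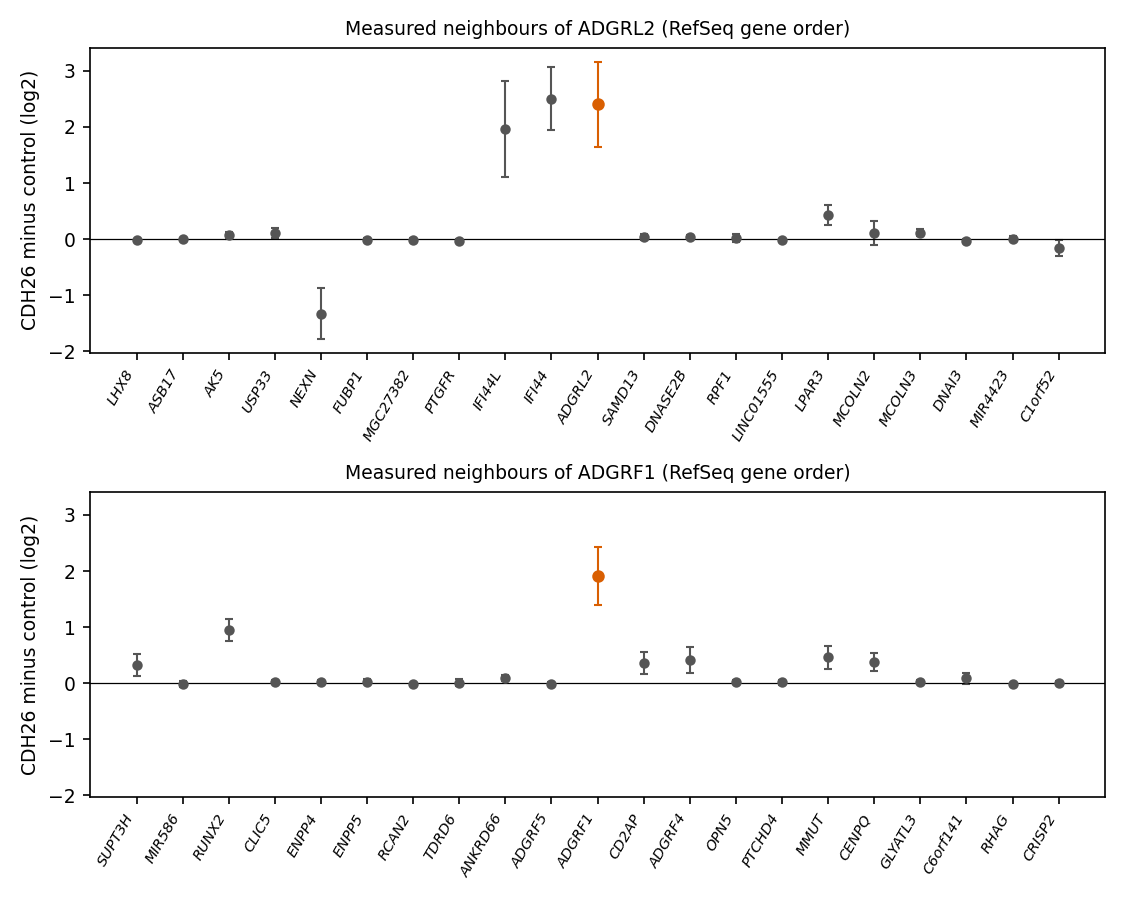
The vertical axis is the difference of CDH26 and control means in log2 units with its SE from limma, for ADGRL2 (upper panel) and ADGRF1 (lower panel) and the 10 nearest measured genes on each side, in gene order and not to physical scale. IFI44L and IFI44 stand beside ADGRL2 at 1.97 and 2.50, while the neighbours of ADGRF1 lie between −0.02 and 0.95.

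Genes through which these receptors act were compared last, to see whether the signalling arms differed as well. Over 7 lists of other adhesion receptors, ligands, G proteins, cyclic AMP, phospholipase C, desensitisation and PDZ scaffolds, 74 of 173 listed genes were measured. Of these 0 passed the adjusted threshold in limma. None of the 14812 named genes passed it, not even the transduced CDH26 (limma, adjusted p = 0.25). That 0 therefore cannot tell unchanged genes from changed ones. At an unadjusted p under 0.05, 1 of the 74 was higher and 4 were lower, against 3.51% and 4.0% of all named genes. CDH26 clones lay wholly above the controls in 4, or 5.41%, and wholly below in 9, or 12.2%, near the 8.98% and 9.93% of all named genes. The median difference over the 74 was 0.

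In the cyclic AMP list 21 of 35 genes were measured and 4 of the 5 genes with an unadjusted p under 0.05 were found. CRTC2, a coactivator of CREB, was at 0.52, 0.35 and 0.18 with CDH26 and at 0.02 and −0.02 in the controls, a difference of 0.35 ± 0.11 (SE; limma, adjusted p = 0.626). Its relative CRTC3 pointed the other way, at −0.26, −0.47 and −0.23 against −0.05 and 0.05, a difference of −0.32 ± 0.10 (limma, adjusted p = 0.626). The groups did not overlap in either gene. The phosphodiesterase PDE8A and the CREB-family factor CREM, named because their number is small, differed by −0.27 ± 0.09 and −0.23 ± 0.08. The list's median was −0.01. CDH26 clones lay wholly above the controls in 2 of the 21 genes, or 9.52%, and wholly below in 5, or 23.8%. The shares over all named genes were 8.98% and 9.93%, and the list as a whole was not tested. AKAP12 had the list's largest difference, −0.73 ± 0.43, and its groups overlapped.

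The other signalling lists were covered unevenly. SHANK2, a scaffold protein of the PDZ list, of which 2 of 10 genes were measured, was at −0.65, −0.45 and −0.33 with CDH26 and at 0.17 and −0.17 in the controls. All CDH26 clones lay below both controls, and the difference was −0.48 ± 0.15 (SE; limma, adjusted p = 0.626), or −0.31 without control clone 1. SHANK1 differed by 0.01 ± 0.10. Of the G protein subunits only 2 of 30 were measured: GNA12 differed by −0.17 ± 0.09 and GNAS, which couples to cyclic AMP, by −0.03 ± 0.06.

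In the desensitisation list, 23 of 28 genes measured, the receptor kinase GRK6 differed by −0.13 ± 0.06 (SE) and RGS19, which turns off G proteins, by −0.38 ± 0.20, and the median was 0. GRK6 was wholly below the controls, while RGS19 overlapped them. RGS19 was at −0.11 without control clone 2. None of the 13 phospholipase C genes had a named probe set.

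Markers of cell types in which these receptors are known were compared in the same way. Of 8 squamous epithelial markers measured of 10, each averaged higher with CDH26 and 6 were wholly above the controls, against 8.98% of all named genes, with a median difference of 0.77; their summed values were 7.57, 9.20 and 5.71 with CDH26 and 2.92 and −2.92 in the controls. Of the 6 wholly above, KRT5 and DSC3 cleared the higher control by only 0.004 and 0.03, with control clones 0.99 and 1.10 apart. KRT14, the keratin of basal cells, was highest at 2.72 ± 0.43 (SE), and SFN differed by 0.63 ± 0.11. Neither these nor the other markers passed after adjustment (limma, adjusted p = 0.626 for KRT14 and SFN). Like ADGRL2 and ADGRF1 the squamous markers averaged higher with CDH26. Between the controls their sum was higher in clone 1, where ADGRL2 was lower and ADGRF1, at 0.02 against −0.02, was higher. Among the CDH26 clones their sum was highest in clone 2 and lowest in clone 3, as in ADGRL2, while ADGRF1 was highest in clone 1. The part of these markers in the receptors' differences was not tested.

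Endothelial markers, 7 of 12 measured, had a median of 0, with ERG at 0.35 ± 0.13 (SE) and ESAM at −0.26 ± 0.15, or 0.17 and −0.03 without control clone 2 and 0.53 and −0.49 without control clone 1. Their summed values were between −0.14 and 0.14 in the control clones and between −0.23 and 0.41 in the CDH26 clones. Leukocyte markers, 7 of 14 measured, had a median of 0.04. Within 0.1 of 0 were 6 of 7, CD4 at 0.04 ± 0.03 among them, against 8932 of all 14812 named genes. The exception was CD68, a lysosomal protein of macrophages and of other cells, at 1.07 ± 0.33 (limma, adjusted p = 0.626). Their summed values were 1.56, 1.26 and 0.75 with CDH26 and −0.37 and 0.37 in the controls. Neural and Schwann cell markers, 6 of 10 measured, had a median of 0.02, with SOX10 at −0.05 ± 0.04 and S100B at 0.02 ± 0.02, and summed values between −0.58 and 0.58 in the controls and between −0.10 and 0.54 in the CDH26 clones. Their part in the receptors' differences was not tested either.

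**Figure D5:**
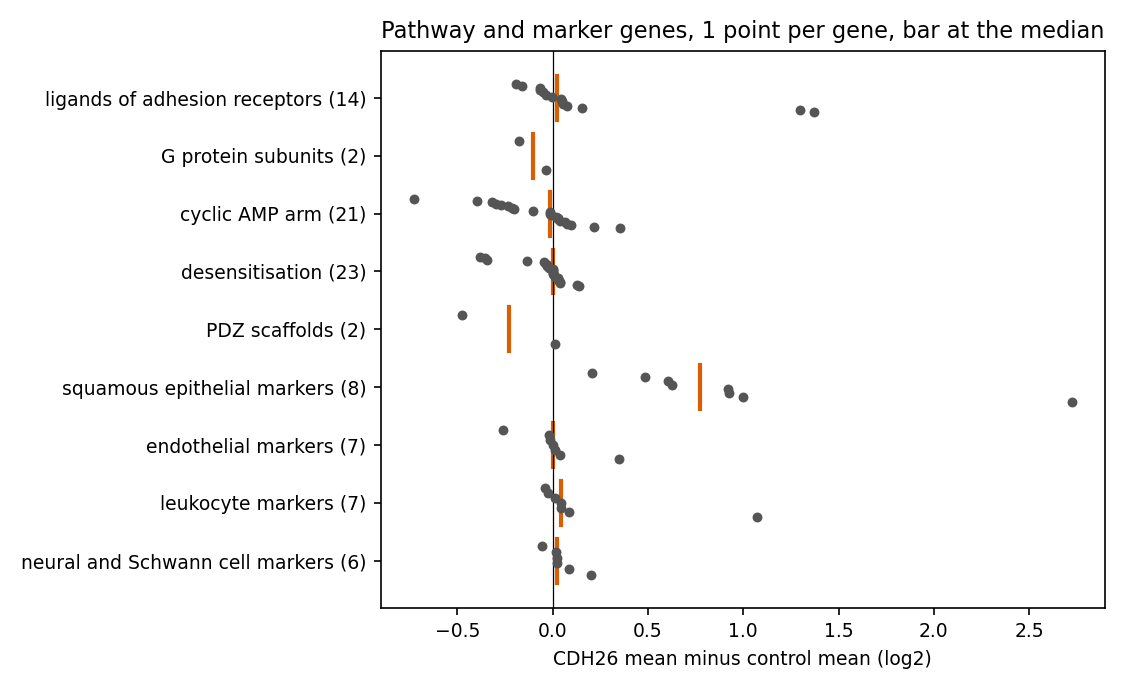
The horizontal axis is the difference of CDH26 and control means in log2 units; each point is 1 gene, the bar is the median of the list and the number in brackets is how many genes were measured. FLRT2 and FLRT3 stand apart among the ligands at 1.30 and 1.37, and the squamous epithelial markers are the list with the median furthest from 0, at 0.77.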

How the data were processed

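RNA of 5 TE7 clones, 2 control and 3 CDH26, was measured on 1 array each; groups come from the labels. Per the submitters' processing notes the software was Affymetrix Expression Console; for its version, the summarisation and the genome build, the sources used here give nothing. The deposited table holds the authors' log values, read here as log2, centred by the authors on the control mean (the largest sum of both control values is 1e-06); the base is not recorded. No scanner signal was used, and the number of arrays limits the precision.

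The array annotation named 15835 of 44607 probe sets with 1 gene each. Values were averaged over the probe sets of a gene. Groups were compared over all 14812 named genes in R 4.3.3 by limma 3.58.1 (two-sided, lmFit followed by eBayes) and Benjamini-Hochberg adjustment at 0.05; SE are limma's. The step was also run on simulated data, drawn as independent normal values with each gene's own spread. Ties between arrays and the centring on the controls were not imitated there, so that run does not bear on them. An exact permutation of these clones cannot give a p below 0.1 and was not used. A filter on dim genes had been listed but cannot be applied to centred values.

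The receptors and the gene lists were chosen with earlier results of these data known. Named were CDH26, all adhesion receptors, the 2 genes of each list with the smallest p, and the 5 genes most like each of the 2 leading receptors; further genes were named after their values were seen. A further signalling list is not reported here. Alternatives were the first listed probe set, centring on array means, natural logarithms, a replicate block, trend and robust variance, array weights, genes without ties (values within 1e-05), and each clone left out. Promoters are RefSeq's (GRCh38.p14).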

Additional observations from a re-analysis of the deposited data

How the results depend on the processing

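ADGRL2 and ADGRF1 stayed the only receptors of the 8 at least 2-fold apart under every alternative run on them. With natural logarithms their differences were 3.47 and 2.75 log2 units, and 265 named genes in place of 96 were 2-fold apart. Over the leave-one-out fits the median of the 8 receptors ranged from 0.043 to 0.42, the number wholly above the controls from 2 to 6 and wholly below from 0 to 2. Over the same fits the number of named genes 2-fold apart ranged from 64 to 226, those past the adjusted threshold from 0 to 186, and the pathway genes with an unadjusted p under 0.05 from 1 to 7 higher and from 1 to 7 lower. Where 1 control clone is left, its spread is taken to equal that among the CDH26 clones. The counts of receptors wholly above or below cannot fall when a clone is left out. Without control clone 2, where 6 receptors were wholly above, so were 23.8% of all named genes. The 2 receptors wholly below, ADGRL1 and ADGRG1, were so without control clone 1. The share of all named genes wholly below in that case was not counted, so nothing is read from the 2. With centring on array means 3 receptors were wholly above, since ties break, and 2 pathway genes were higher at an unadjusted p under 0.05. Among genes without ties 3 were higher, 1 named gene passed the adjusted threshold, and CDH26, at 2.84, passed it (adjusted p = 0.0106, against 0.25 over all named genes and 0.155 to 0.64 under the other alternatives on all 5 clones); the fit then covers fewer genes, and what lowered the p was not tested. With trend and robust variance 2 pathway genes were lower. With the first listed probe set ADGRL1 was at −0.08.

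Clone numbers do not pair the clones by any label. The deviations of control and CDH26 clone 1 correlated at −0.20 over all named genes, and those of both clones 2 at −0.21. With a replicate block, which leaves CDH26 clone 3 out of the contrast, 181 named genes were 2-fold apart, 4 pathway genes were higher at an unadjusted p under 0.05, and 0 passed the adjusted threshold. A stricter filter on dim genes was not run. The cause of these shifts was not tested where none is given.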
